A study of Arvicanthis niloticus with 5 samples.

Results

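The gamma crystallins are soluble proteins of the eye lens, and 6 of their genes, Cryga, Crygb, Crygc, Crygd, Crygn and Crygs, were measured in RNA of whole eyes of the Nile rat (Arvicanthis niloticus), a day-active African rodent. The genes were chosen by symbol, in the mouse, rat or human name given to each transcript, and stand for 6 of 13982 named genes. The labels list 5 samples, all of wild-type genotype and all eye tissue, in 1 group. The labels state no age, sex or time of day. The RNA of 5 rats was pooled before library preparation, per the labels' protocols, and the deposited values are in a single column that names no sample. Whether that column sums all 5 samples or holds fewer is not stated. It is called the pool here. Every value below comes from it, without replicate error, and no test between animals or conditions could be made. Brackets hold 95% intervals that cover counting error alone, and PCR copies are not independent molecules.

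As background, gamma crystallins are compact, monomeric proteins of paired domains, related in fold to the beta crystallins. They are packed at high concentration in the elongated fibre cells of the lens, where they raise the refractive index while keeping the tissue transparent. In rodents Cryga, Crygb, Crygc and Crygd belong to a tandem cluster of near copies that also holds Cryge and Crygf. Crygs lies elsewhere in the genome and is known from the outer, later-formed fibres. Crygn has a gene structure between those of the beta and gamma classes. Changes in several of these proteins cause inherited cataract.

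The rule found 7 transcripts. Of these, 6 carried 1 member each, and the remaining transcript was named Crygs in rat and Tbccd1 in mouse and human. Symbols differed between species on 16.7% of named transcripts. A single transcript for a gene was usual in this table (90.1% of named genes). Crygd carried the same symbol in all 3 species, as 11.0% of named transcripts did. Crygb, Crygc and Crygn carried theirs in mouse and human. Cryga was named from human alone and Crygs from mouse alone, with Ensembl identifiers or nothing in the other columns. No other transcript shared an Ensembl identifier with any of the 7. With names taken in the order mouse, rat, human, no transcript was named Cryge or Crygf, so fragments of those copies could not be placed. Whether either symbol stood in a later column behind another name was not checked.

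The level is given as FPKM, fragments scaled for transcript length and for the total of mapped fragments. Crygb, a clustered gamma crystallin, stood at 3621 FPKM [3596 to 3646] on 79986 fragments and was the first of all named genes. Crygc, another clustered gene, stood at 1668 FPKM [1652 to 1684] on 42257 fragments and ranked 6. Crygs stood at 645 FPKM [637 to 653] on 25557 fragments and ranked 23. The family thus opened with a pair of clustered genes, and the separately placed Crygs came next.

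Crygd, whose human counterpart is a known cataract gene, stood at 634 FPKM [625 to 643] on 18827 fragments and ranked 24. Cryga, the remaining clustered gene, stood at 38.4 FPKM [36.1 to 40.8] on 1065 fragments and ranked 1176. Crygn was lowest at 14.4 FPKM [13.4 to 15.4] on 770 fragments and ranked 3342. The low pair was therefore made of 1 clustered and 1 unclustered gene. Among these transcripts, membership of the cluster known in rodents did not separate high from low levels. Within the cluster this rests on Cryga, which was named from human alone. The clustered genes were not located in the Nile rat genome.

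**Figure D1:**
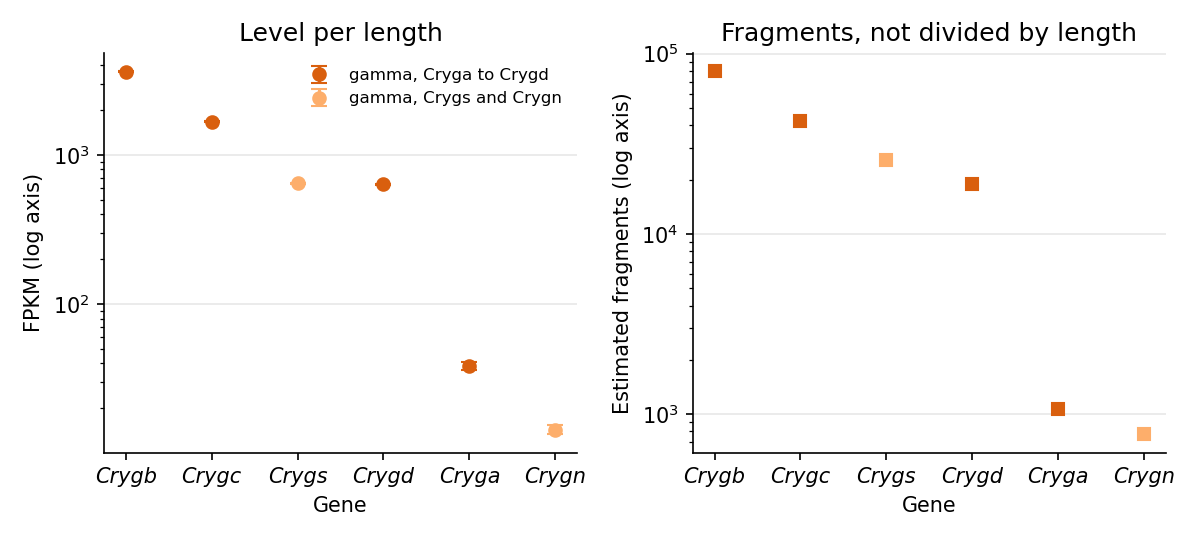
Level in FPKM (left, log axis, bars are 95% counting intervals) and estimated fragments (right, log axis) of each gamma crystallin in the pool. Crygb is highest at 3621 FPKM and Crygn lowest at 14.4 FPKM, and the order of the genes is the same in both panels.

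Of the 6 members, 4 reached 100 FPKM, against 2.21% of all named genes, and all 6 reached 10 FPKM, against 34.0% of named genes. The median of the members was 640 FPKM, and that of all named genes 6.50 FPKM. The gamma crystallins are known as abundant lens proteins, so these counts describe the set and were not tested.

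The order of levels was resolved by counting error for all but 1 of the 15 pairs of members. Crygs and Crygd did not differ beyond it, with a log2 ratio of Crygs to Crygd of 0.024 [-0.0028 to 0.051]. Crygb was 2.17-fold [2.15 to 2.20] above Crygc. Crygc was 2.59-fold [2.55 to 2.63] above Crygs. Below these came a gap: Crygd was 16.5-fold [15.5 to 17.6] above Cryga. Cryga was 2.67-fold [2.43 to 2.93] above Crygn. The whole family spanned 252-fold [235 to 270] from Crygn to Crygb. These sizes depend on the division by length, and the brackets do not cover that choice. From Crygn to Crygb the span was 104-fold in fragments, which are not divided by length, and 463-fold when 200 nt, standing for a fragment size, was taken off each length. Cryga was above Crygn by 1.38-fold in fragments and by 3.80-fold with 200 nt taken off. Crygc was above Crygs by 1.65-fold in fragments.

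Within the cluster the levels were uneven. Cryga, Crygb, Crygc and Crygd summed to 5961 FPKM, of which Crygb held 60.7% [60.5 to 61.0], Crygc 28.0% [27.7 to 28.2], Crygd 10.6% [10.5 to 10.8] and Cryga 0.644% [0.605 to 0.682]. Crygb was 94.4-fold [88.8 to 100.2] above Cryga, a member of the same cluster. The division among these 4 genes is uncertain, since they are known in rodents as near copies and the counting could split shared fragments between them. How alike their transcripts are in the Nile rat was not computed. Of the member transcripts, 4 had a fractional estimated count, which shows that some of their fragments were divided (a count within 1e-06 of a whole number was taken as whole): Crygb, Cryga, Crygs and Crygn. Crygc and Crygd had whole counts. A fractional count was found on 44.0% of named transcripts, so it was not unusual.

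The clustered genes together stood far above both unclustered ones. Their sum was 9.24-fold [9.12 to 9.37] above Crygs, a log2 ratio of 3.21 [3.19 to 3.23]. It was 415-fold [386 to 445] above Crygn, a log2 ratio of 8.70 [8.59 to 8.80]. The 4 clustered genes held 90.0% [89.9 to 90.2] of gamma crystallin FPKM, and Crygs with Crygn held 9.96% [9.84 to 10.1]. A large part of this came from Crygb. Without Crygb, the sum of Cryga, Crygc and Crygd was 3.63-fold [3.58 to 3.68] above Crygs. Gene by gene, Crygb and Crygc were above Crygs, Crygd did not differ from it beyond counting error, and Cryga was 16.8-fold [15.8 to 17.9] below it.

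The 4 clustered transcripts were short. Crygb was 340 nt long, Crygc 390 nt, Cryga 427 nt and Crygd 457 nt, while Crygs was 610 nt and Crygn 824 nt. The median named transcript was 2156 nt, and 6.35% of named transcripts were under 500 nt. A full-length gamma crystallin coding sequence is longer than any of the 4 clustered transcripts, so each of these covers a part of its mRNA. The transcripts of Crygs and Crygn are long enough to hold theirs. Named transcripts under 500 nt had a median of 0.785 FPKM, and 5.10% of them reached 100 FPKM, against 1.74% of the longer ones. Cryga, the lowest clustered gene, still ranked 97 among the 981 named transcripts under 500 nt.

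**Figure D2:**
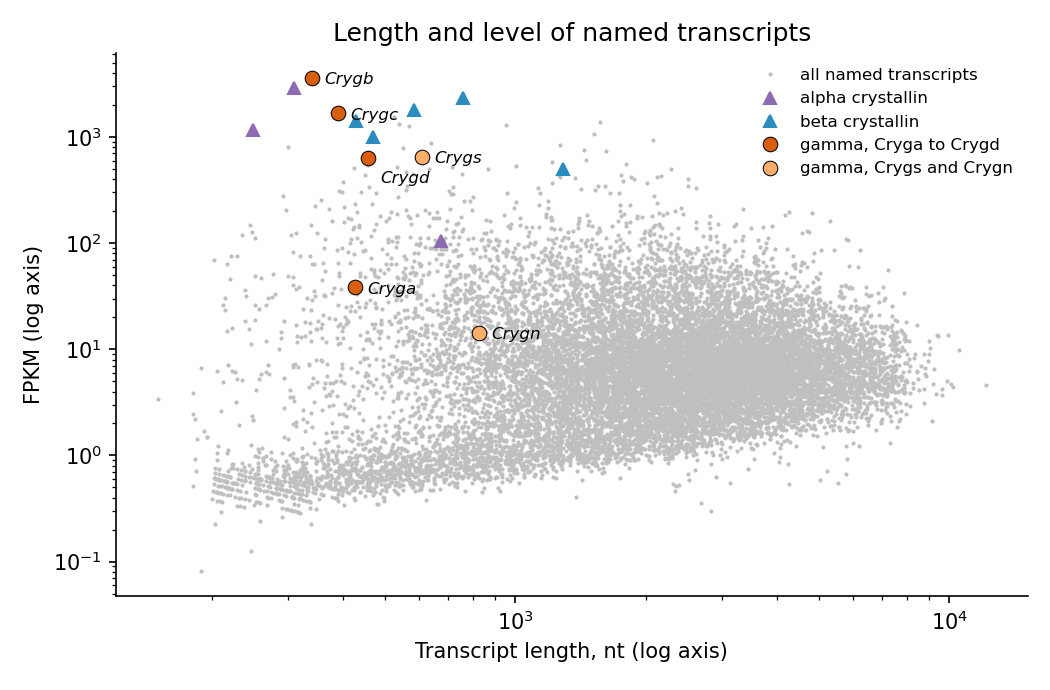
Length in nt (log axis) against FPKM (log axis) of all named transcripts (grey) with each transcript of the gamma, beta and alpha crystallins marked. Crygb, Crygc and Crygd lie at the upper left, at 340 to 457 nt, while Cryga at 427 nt lies well below them at 38.4 FPKM.

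Since FPKM divides by length, the members were also compared by fragments alone. In fragments the clustered sum was 5.56-fold above Crygs and 185-fold above Crygn, in the same direction as in FPKM. With 200 nt taken off each length, the log2 ratios of the cluster were 3.81 to Crygs and 9.46 to Crygn. In fragments, the difference between Crygs and Crygd opened to 1.36-fold, with Crygs higher. With the 200 nt taken off, Crygd was higher instead, at 1128 FPKM against 959 FPKM for Crygs. The order of Crygs and Crygd thus depended on how length was treated, and the order of the other members did not. The number of fragments per nt of transcript was 235 for Crygb, 108 for Crygc, 41.9 for Crygs, 41.2 for Crygd, 2.49 for Cryga and 0.934 for Crygn. Counting error, which follows the number of fragments, was below 1% of the level for Crygb and Crygc, and 7.13% for Crygn.

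**Figure D3:**
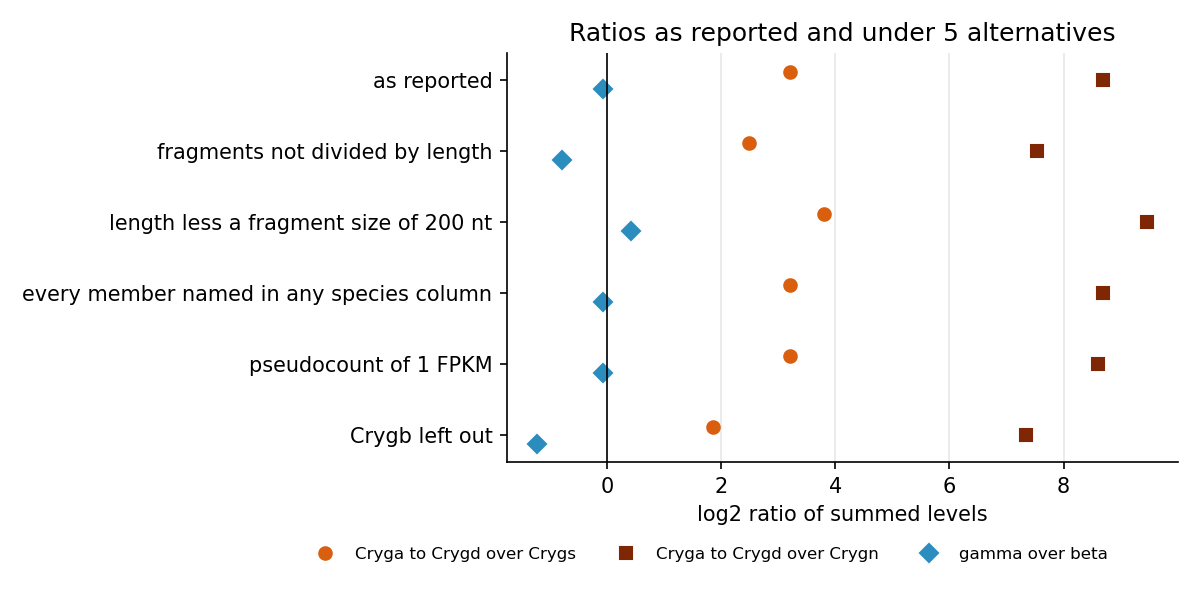
Log2 ratio of the summed levels of Cryga to Crygd over Crygs (circles), Cryga to Crygd over Crygn (squares) and all gamma over all beta crystallins (diamonds), as reported and under 5 alternatives. Both ratios of the cluster stay above 0, at 1.86 or more, while the ratio of gamma to beta lies on both sides of 0.

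The other crystallins gave a scale for these levels. Alpha crystallins are chaperones of the lens and other tissues, and beta crystallins are oligomeric relatives of the gamma class. All 6 gamma crystallins summed to 6621 FPKM, the 5 measured beta crystallins to 7019 FPKM and both alpha crystallins to 4157 FPKM. Gamma crystallins held 37.2% [37.1 to 37.3] of the FPKM of these 13 genes. The gamma sum was 1.59-fold [1.58 to 1.61] above the alpha sum in FPKM. That size depended on the treatment of length, at 2.07-fold in fragments and 1.02-fold with 200 nt taken off each length. The log2 ratio of gamma to beta was -0.084 [-0.093 to -0.076], so the beta class was slightly higher. This small difference did not hold across ways of counting: the log2 ratio was -0.80 in fragments and 0.41 with 200 nt taken off each length. No transcript was named Cryba1 here, so the beta sum lacks a member.

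Levels were spread more widely in the gamma class than in the beta class. The highest gamma crystallin was 252-fold above the lowest, and the highest beta crystallin 4.61-fold above the lowest. Crygb alone held 54.7% [54.5 to 54.9] of gamma crystallin FPKM, whereas Cryba4, the highest measured beta crystallin, held 33.0% [32.8 to 33.2] of beta crystallin FPKM. In fragments the contrast was smaller, at 47.5% for Crygb and 38.7% for Cryba4. Cryba1 was not measured and is missing from the beta side of these comparisons. The measured beta crystallins ranged from 502 FPKM for Crybb2 to 2315 FPKM for Cryba4, and no measured alpha or beta crystallin was as low as Cryga or Crygn. Of the 8 crystallin-related symbols outside these classes, 5 were measured, at 1.14 FPKM for Crybg3 to 39.6 FPKM for Crym, an enzyme-derived crystallin of marsupials. Cryga and Crygn lay inside that range.

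**Figure D4:**
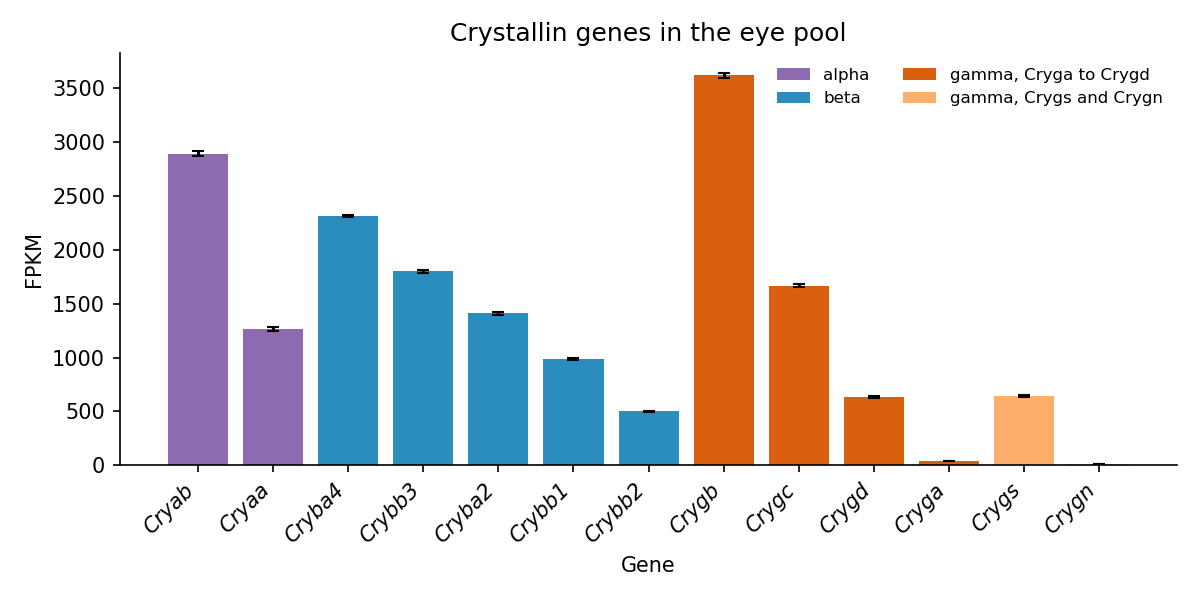
FPKM of each measured alpha, beta and gamma crystallin gene in the pool (bars start at 0, error bars are 95% counting intervals). Gamma crystallins hold both the highest bar, Crygb at 3621 FPKM, and the lowest, Crygn at 14.4 FPKM.

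The gene ranked directly below Crygb was Cryab, a small heat shock protein, at 2894 FPKM. Crygc lay between Crybb3, a beta crystallin at 1802 FPKM, and Grifin (1528 FPKM), a lens protein of the galectin family. Crygs and Crygd were adjacent in rank, with Oaz1 (703 FPKM), a regulator of polyamine synthesis, above and Dcn (603 FPKM), the stromal proteoglycan decorin, below. Cryga lay between Syngr1, a synaptic vesicle protein, and Pja2, a ubiquitin ligase, both at 38.4 FPKM. Crygn lay between Acsl5, a fatty acid ligase, and Cldn1, a tight junction protein, both at 14.4 FPKM. With 1 pool, no likeness of pattern across samples could be computed.

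Lens RNA was present by other markers. All 9 fibre markers were measured, from 4.28 FPKM for Dnase2b, the nuclease that clears fibre cell DNA, to 1528 FPKM for Grifin. Of these markers, 6 of 9 reached 100 FPKM, against 2.21% of all named genes. The list of lens fibre genes, which includes these markers, had 15 of 16 symbols measured, a median of 84.3 FPKM and a sum of 4736 FPKM. Crygb alone came to 0.765 of that sum in FPKM and 0.206 of it in fragments. Crygn came to 0.00304 of it in FPKM. Markers of lens epithelium, rods, cones, other retinal neurons, pigment epithelium, cornea and muscle were measured in the same pool. The cell type that carried each gamma crystallin was therefore not determined. In a whole eye, fewer cells of a type and less RNA per cell cannot be told apart.

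Genes known to act on crystallin expression in the lens that could be measured were all below the 4 high gamma crystallins in FPKM. In fragments, which are not divided by length, Tdrd7 (23626 fragments on 6162 nt) was above Crygd (18827 fragments on 457 nt). Of 24 such regulators, 22 were measured, and 21 reached 1 FPKM (93.2% of all named genes did). Of the 22, 11 reached 10 FPKM (34.0% of named genes did) and none reached 100 FPKM (2.21% of named genes did). A share that small leaves few or none among 22 genes, so the last count says nothing particular to the regulators. The median of the regulators was 9.15 FPKM, against 6.50 FPKM for all named genes. Maf, which binds the promoters of gamma crystallin genes, was at 14.8 FPKM. Sox2 and Sox1, which act with it, were at 10.4 and 2.84 FPKM, and Prox1, a fibre differentiation factor, was at 11.3 FPKM. Pax6 was highest at 92.3 FPKM and is also expressed in the retina and cornea. Tdrd7, an RNA granule protein needed in fibre cells, was at 59.0 FPKM. Hsf4, a heat shock factor of the lens, was at 2.39 FPKM and Pitx3 at 4.49 FPKM. Crygb stood far above each of these, while Crygn, at 14.4 FPKM, did not differ from Maf beyond counting error.

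The RefSeq gene table of the Nile rat (assembly mArvNil1.pat.X) holds Crygs and Crygn by symbol. No row was matched to Cryga, Crygb, Crygc or Crygd by symbol, and the labels name no genome build for the deposited transcripts, so coordinates are left out. The protein-coding genes next to Crygs in that table are Dgkg, a diacylglycerol kinase, at 2.08 FPKM and Tbccd1, a centrosome-linked protein, at 5.32 FPKM. Crygs, at 645 FPKM, was far above both. Crygn is flanked by Wdr86, for which no transcript was named here, and Rheb, a GTPase of the mTOR pathway, at 54.2 FPKM. Crygn was below Rheb.

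Together the 6 genes held 2.69% [2.67 to 2.70] of the FPKM of named genes and 0.535% of their fragments. Of all transcripts, named or not, they held 0.483% of FPKM and 0.253% of fragments. Transcripts without an ortholog held 47.0% of all fragments, and any gamma crystallin piece among them is missing from the levels above.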

How the data were processed

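RNA of Nile rat eyes was sequenced from a library pooled from 5 rats, per the labels' protocols. Per the file headers, each transcript has an estimated count of fragments, in part fractional. The FPKM deposited by the authors is that count over the full transcript length and the 64967222 mapped fragments stated in the file header, and recomputing it gave the deposited value to within 1e-05 (relative) on each of 124299 transcripts with fragments. The estimated fragments of all transcripts, as summed here, came to more than that stated total, for a reason that was not determined. Bowtie was used, per the submitters' processing notes. For its version, the assembler, the counter and the build, nothing is stated (not given in the sources used here). Transcript lengths and ortholog names are also the authors' deposited columns.

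Names were taken in the order mouse, rat, human, ignoring case and identifiers, which named 15454 of 124439 transcripts. FPKM was summed per gene. Levels carry 95% gamma (Fay-Feuer) intervals and ratios and shares delta-method intervals, for Poisson counts. No test was run, since there is 1 pool. At 1000 nt a count of 0 allows 3 fragments, or 0.0462 FPKM. The interval code was tested on simulated Poisson counts set from the observed ones. These lacked divided fragments and PCR copies, so that test checks the code and not the fit of the intervals to these data. The genes named are the members, the genes ranked directly above and below each, and further crystallins, regulators and lens fibre genes from fixed lists. Members and lists were chosen with earlier results of these data known. Alternatives were other ways to combine transcripts, to treat length, to filter and to name. Protein, promoter and transcript sequences were not used here. The software was SciPy 1.17.1, NumPy 2.4.6, Matplotlib 3.10.9, pandas 2.3.3 and Python 3.11.15.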

Additional observations from a re-analysis of the deposited data

Results flagged for a closer look

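A transcript of 2877 nt, named Crygs in rat and Tbccd1 in mouse and human, held 994 fragments, or 5.32 FPKM [4.99 to 5.66], above the 0.0161 FPKM that a count of 0 allows at its length. It was not counted as Crygs above. It drew attention because its symbols differ between species, as on 16.7% of named transcripts, and because Crygs and Tbccd1 are next to each other in the RefSeq table. Counting it for Crygs gave 650.2 FPKM in place of 645 FPKM.

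Crygb ranked first among named genes, but 23 transcripts of the pool had a higher FPKM. They were 200 to 555 nt long, and none of the 23 had an ortholog in the deposited tables, so they entered no comparison between named genes. They are part of the totals over all transcripts.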

How the results depend on the processing

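Each member has 1 transcript and lies above FPKM 1, so the levels of the members could not change with the way transcripts are combined or with that filter. With fragments in place of FPKM the unit of a level changes, so these levels are set against one another and not against FPKM. In fragments, Cryga was 1065, Crygb 79986, Crygc 42257, Crygd 18827, Crygs 25557 and Crygn 770 fragments. The log2 ratios of the cluster to Crygs and to Crygn were then 2.48 and 7.53, the log2 ratio of gamma to beta was -0.80, and the gamma share of crystallins was 31.0%. With 200 nt taken off each length, Cryga was 72.2, Crygb 8794, Crygc 3423, Crygd 1128, Crygs 959 and Crygn 19.0 FPKM. The same 3 log2 ratios were 3.81, 9.46 and 0.41, the last one in the opposite direction, and the gamma share was 36.6%. With transcripts under 500 nt left out, no clustered gene remained, so the cluster's levels and ratios gave no value. The filter also took out Cryba2 (429 nt), Crybb1 (471 nt), Cryab (309 nt) and the shorter transcript of Cryaa (249 nt), so all 3 class sums changed. The log2 ratio of gamma to beta was then -2.81 and the gamma share 12.2%. Taking the highest transcript per gene moved the share to 37.4%, and a mean weighted by length moved it to 39.1%. Leaving out Crygb was chosen after seeing the data and gave log2 ratios of 1.86, 7.35 and -1.23 and a share of 21.2%. Leaving out transcripts under FPKM 1, the other naming rules and a pseudocount of 1 FPKM kept each value within counting error. Division by coding length and leaving out each sample were not run, because no protein table and no column per sample were used here. No paired analysis was possible because the values of the 1 group are in a single pooled column. Depth limits Crygn and Cryga most, at 7.13% and 6.05% counting error.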
